A study of Mus musculus with 6 samples.

Results

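The RNA levels of 39 genes of ERK signalling and related pathways were compared between T1 and T2 cells. These are 2 tumor cell populations of the 4T1 model of triple negative breast cancer. The genes were feedback regulators or early transcriptional targets of ERK signalling, phosphatases of related MAP kinases, and Ras genes and regulators. The members were taken by gene symbol from the deposited table and made up 39 of its 24129 gene names. They were 10 dual specificity phosphatases (Dusp1, Dusp2, Dusp4, Dusp5, Dusp6, Dusp7, Dusp8, Dusp10, Dusp14 and Dusp16), 6 Sprouty and Spred genes (Spry1, Spry2, Spry4, Spred1, Spred2 and Spred3), the 3 PEA3 group ETS factors (Etv1, Etv4 and Etv5), the 4 Fos and 3 Jun genes of the AP-1 factor (Fos, Fosb, Fosl1, Fosl2, Jun, Junb and Jund), 7 other early response genes (Egr1, Egr2, Egr3, Ier2, Ier3, Myc and Phlda1) and 6 Ras genes and regulators (Hras, Nras, Rras, Rasa1, Nf1 and Rasgrp1). Both populations descended from 4T1GFP, a GFP-tagged mouse mammary carcinoma line that had been injected into BALB/c mice, and were separated by their GFP level from tumor cells that overgrew a fibroblast culture made from the primary tumor. T1 cells (labelled 4T1A) had low GFP, an adherent epithelial shape and an aggressive phenotype in mice. T2 cells (labelled 4T1NA, the non-aggressive population) had high GFP, were round and loosely attached, and were passaged without trypsin like a suspension culture. Each population was sequenced in 3 replicates of untreated cells in serum-containing DMEM/F-12 medium. The labels do not say how or when after feeding the cells were collected, so the population and its handling cannot be told apart. Nor do they say whether the replicates came from separate sorts, and p-values measure only the spread between these libraries. The parental 4T1GFP cells were not analysed here.

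ERK is the last kinase of a cascade that runs from growth factor receptors through Ras, Raf and MEK. Within minutes of its activation it switches on early response genes such as Fos and Egr1 through serum response factor and its ETS partners, and their products form AP-1 and other factors that act on later genes. ERK also induces its own inhibitors, among them phosphatases that remove its activating phosphates and Sprouty and Spred proteins that act at the level of Ras and Raf, so that the RNA of these inhibitors is often used as a readout of the pathway. RNA levels do not measure ERK phosphorylation, for which there are no values here.

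The libraries held 18133227 to 20839686 reads on genes, and 1 read was worth 0.928 to 1.06 normalized counts, the unit of all values below. Of the members, 38 passed the filter of a mean of at least 10 normalized counts and Rasgrp1, a Ras exchange factor of lymphocytes, had no read in any library. T2 replicate 2 stood apart in these genes. It lay more than 1 log2 unit above the mean of the other T2 libraries for 10 of the 38 members, against 1.25% of the 11514 genes tested. T1 replicate 2 was high in the same sense for 4 members, against 0.703% of the genes tested. Most results that rest on these libraries are therefore given by library or with and without them. As markers of the labelled tissue, the epithelial keratins Krt8 and Krt18 were high in both populations, while the sum of 10 epithelial markers was 100967 to 120755 in T1 and 37629 to 43999 in T2 libraries and Krt5 had no read. Krt8 and Krt18 were not called and carried most of the T2 sum. The other 6 epithelial markers tested were higher in T1 cells past both cut-offs, such as Epcam at a mean of 3141 against 34.7 and Cdh1 at 14748 against 465 normalized counts. The sum of 10 fibroblast markers was 353 to 403 in T1 and 997 to 1297 in T2 libraries, with Col3a1, Lum, Pdgfrb and Thy1 at 0 in all 6. The higher T2 sum came from Pdgfra (mean of 199 in T1 and 1099 in T2 cells), while Col1a1 (22.4 and 0.326) and Postn (145 and no read in T2) were higher in T1 cells. The sum of 10 leukocyte markers was 61.4 to 95.6 in T1 and 92.8 to 127 in T2 libraries, with Tyrobp, Cd3e and Adgre1 among those at 0. The sum of 8 endothelial markers was 1651 to 1874 in T1 and 4675 to 5059 in T2 libraries, with Kdr and Emcn at 0. Here the higher T2 sum came from Flt1 (mean of 314 in T1 and 3674 in T2 cells), and Eng was higher in T1 cells (1479 and 1176). The part of any other cell type in the results was not tested.

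More of the members were lower than higher in T1 cells, but every family that had more than 3 genes held members that were higher. At an adjusted p under 0.01 (limma with Benjamini-Hochberg adjustment over the genes tested), 20 members were lower and 10 were higher in T1 cells, and 8 did not pass. Over the genes tested, 24.4% were lower and 25.1% were higher, so the number of members that were higher lay near the background share and the number that were lower lay above it. With the further cut-off of a log2 fold change above 2, 9 members were lower in T1 cells (Dusp6, Dusp10, Etv1, Etv5, Fos, Fosl1, Egr1, Egr2 and Egr3), against 4.20% of the genes tested. Dusp8 and Spry1, 2 members, were higher past both cut-offs, against 4.17%. Without T2 replicate 2 this number rose to 5, Dusp16, Fosl2 and Jund being added, and without T1 replicate 3 to 4. Of the 9 lower members, Fos (adjusted p 0.0355) and Egr1 (log2 fold change -1.86) missed a cut-off without T2 replicate 2. Etv5 did so without T1 replicate 1 (-1.95) and without T1 replicate 2 (-1.94). The groups did not overlap for 31 of the 38 members, against 68.1% of the genes tested. The median log2 fold change of T1 over T2 was -0.95 over the members and -0.01 over the genes tested, and the median absolute log2 fold change was 1.67 and 0.45. Fold changes are on the scale of log2(normalized count + 1), on which differences of weakly expressed genes come out too small. With 3 libraries against 3, the exact two-sided permutation test of a single gene cannot go below p = 0.1. In bulk RNA, fewer cells with a transcript and less of it per cell cannot be told apart.

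**Figure D1:**
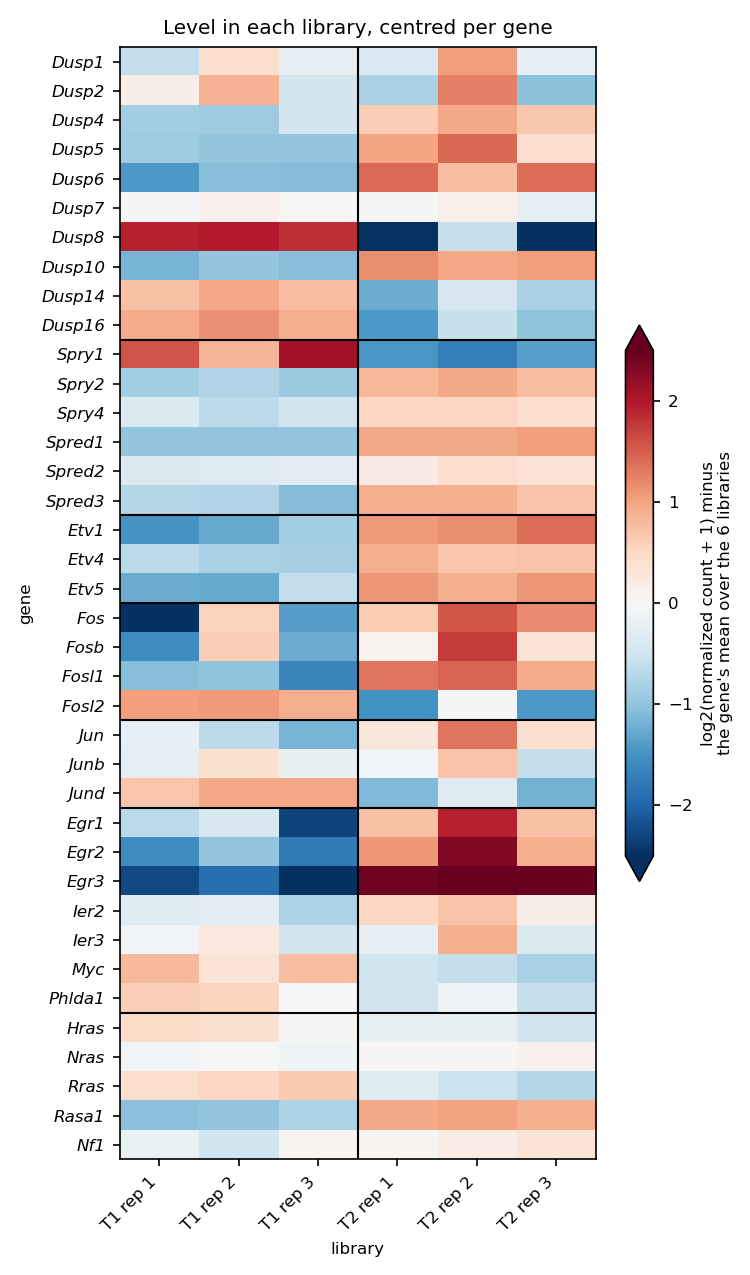
Level of each of the 38 members tested (rows) in each library (columns), as log2(normalized count + 1) minus the gene's mean over the 6 libraries, with black lines between the gene groups and between T1 and T2 cells. The 20 members that were lower in T1 cells are blue in the T1 and red in the T2 columns, except that Fos is red in T1 replicate 2. Colour alone does not mark a call. The T2 replicate 2 column is redder or less blue than its neighbours for the 10 members that were high in that library.

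**Figure D2:**
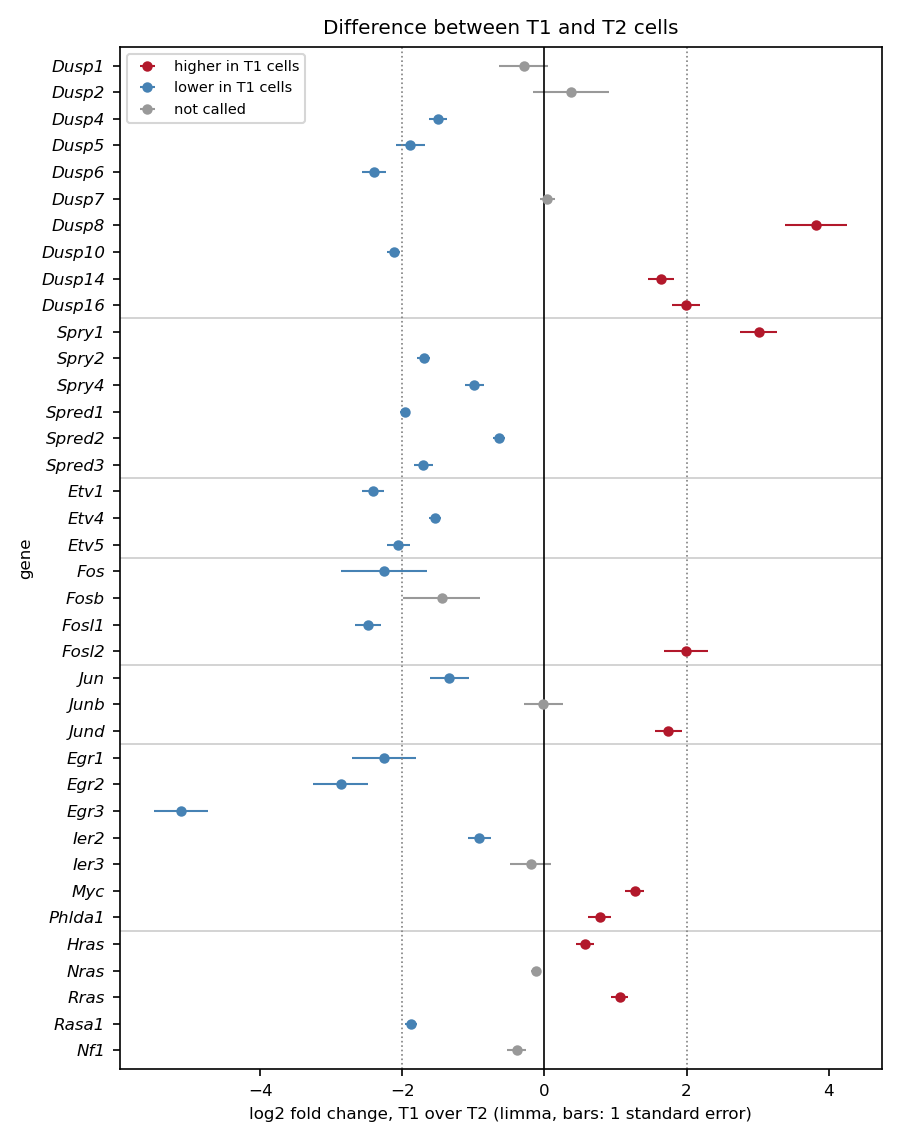
Log2 fold change of T1 over T2 cells for each member from limma, with bars of 1 standard error and dotted lines at the cut-off of 2 in either direction. Egr3 at -5.11 and Dusp8 at 3.82 are the ends of the range, and the widest bars belong to Fos, Fosb and Dusp2.

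The dual specificity phosphatases split by gene, with 4 lower in T1 cells (Dusp4, Dusp5, Dusp6 and Dusp10), 3 higher (Dusp8, Dusp14 and Dusp16) and 3 not passing (Dusp1, Dusp2 and Dusp7). Dusp6 (chromosome 10, 99263231 to 99267489 of mm10), a phosphatase of the cytoplasm that acts on ERK, had 807, 1047 and 1035 normalized counts in T1 replicates 1, 2 and 3, and 5887, 3733 and 5785 in T2 replicates 1, 2 and 3. All T2 libraries lay above all T1 libraries, T2 replicate 2 being the lowest of them, and the mean was 5.33-fold higher in T2 cells (log2 fold change -2.39, standard error 0.17, adjusted p 1.12e-06). Dusp10, which prefers the JNK and p38 kinases to ERK, had 440.2, 506 and 470.4 normalized counts in the T1 and 2197, 1934 and 2029 in the T2 libraries. Its groups were also far apart, with a 4.35-fold higher mean in T2 cells (log2 fold change -2.12, standard error 0.09, adjusted p 4.59e-08). Dusp4, a nuclear phosphatase of ERK and JNK, and Dusp5, a nuclear phosphatase of ERK, reached 2.82-fold and 3.86-fold higher means in T2 cells, with log2 fold changes of -1.50 (standard error 0.13) and -1.89 (standard error 0.21). For Dusp5 the T1 libraries lay between 362 and 390.4 normalized counts and the T2 libraries spread from 959 to 1944.

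Dusp8 ran in the opposite direction. This phosphatase prefers JNK and p38, as Dusp10 does. It lies on chromosome 7 of mm10 from 142079490 to 142095843 and had 1042, 1096 and 985 normalized counts in T1 replicates 1, 2 and 3, and 49.0, 185 and 41.8 in the T2 replicates. The T1 libraries were all above the T2 libraries, but T2 replicate 2 was 4.09 times the mean of the other 2 T2 libraries. The mean was 11.3-fold higher in T1 cells (log2 fold change 3.82, standard error 0.44, adjusted p 3.33e-05), and without T2 replicate 2 the log2 fold change was 4.49. Dusp16, another phosphatase of JNK and p38, and Dusp14, a small phosphatase that lacks the kinase docking domain of the others, were 3.88-fold and 3.05-fold higher in T1 cells, with log2 fold changes of 1.99 (standard error 0.19) and 1.64 (standard error 0.18). The 3 phosphatases that prefer JNK and p38 thus did not move together, since Dusp8 and Dusp16 were higher and Dusp10 was lower in T1 cells.

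The 3 phosphatases that did not pass had overlapping groups. Dusp1, a nuclear phosphatase of all 3 classes of MAP kinase and itself an early response gene, had 1526, 3042 and 1940.3 normalized counts in T1 and 1773, 4732 and 1976 in T2 replicates 1, 2 and 3. Replicate 2 was the highest library in both populations, and the log2 fold change of -0.29 (standard error 0.34) became 0.15 without T2 replicate 2. Dusp2, a nuclear phosphatase known from activated lymphocytes, had 248, 405 and 162 normalized counts in the T1 and 126, 535 and 109 in the T2 libraries. It was again highest in replicate 2 of both populations, and its log2 fold change of 0.38 (standard error 0.53) was 1.11 without T2 replicate 2 (adjusted p 0.0177) and -0.04 without T2 replicate 3. The value was 0.04 (adjusted p 0.957) without T1 replicate 2 and 0.77 (0.0292) without both libraries of replicate 2. Dusp7, a cytoplasmic phosphatase of ERK like Dusp6, had a log2 fold change of 0.04 with a 95% interval of -0.20 to 0.27.

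Per kilobase of exon, the summed level of the 10 phosphatases was 3048 ± 403 in T1 and 5463 ± 607 in T2 cells (SD, n = 3 each), and its composition differed. Dusp6 made up 10.1% ± 0.925 of the sum in T1 and 30.7% ± 9.85 in T2 cells. Its T2 share was 36.0%, 19.4% and 36.8% in replicates 1, 2 and 3. Dusp14 made up 19.0% ± 0.889 in T1 and 3.44% ± 0.689 in T2 cells, and Dusp8 made up 7.07% ± 0.769 and 0.327% ± 0.252. These levels divide by the merged exons of the GENCODE annotation, so a gene expressed from a short isoform is understated.

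The promoters of the members were searched for 5 motifs, since several of them moved together within 1 library. RefSeq promoter windows of GRCm38.p6, from 250 bases before to 50 bases after a start site, were found for 30 members. The other 9 (Dusp4, Spry4, Etv4, Fosl1, Egr1, Egr3, Ier2, Myc and Phlda1) had no window, and bases further upstream were not searched. Dusp8 and Egr2 are shown because they passed both cut-offs and hold a motif that binds early response regulators. Dusp1 and Dusp5 were added after their values were seen, because they hold the same motifs. The sequences run 5′ to 3′ on the strand of the gene, and capitals mark the motifs. In Dusp8 (chr7:142095329-142095404, minus strand) the capitals are 2 copies of the cyclic AMP response element TGACGTCA, the site of CREB and ATF factors. In Dusp1 (chr17:26508572-26508632, minus strand) they are 1 copy of TGACGTCA and 1 E-box CACGTG. In Dusp5 (chr19:53529045-53529094, plus strand) they are 2 adjoining CArG boxes, the site of serum response factor, and in Egr2 (chr10:67537787-67537816, plus strand) they are 1 CArG box.
Dusp8: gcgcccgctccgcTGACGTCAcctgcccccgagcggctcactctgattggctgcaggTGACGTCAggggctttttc
Dusp1: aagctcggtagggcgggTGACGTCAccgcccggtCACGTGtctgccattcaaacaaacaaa
Dusp5: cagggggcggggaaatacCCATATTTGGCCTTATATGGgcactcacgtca
Egr2: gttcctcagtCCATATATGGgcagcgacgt
Dusp8 and Dusp1, the 2 members whose window holds TGACGTCA, were both high in T2 replicate 2, at 4.09 and 2.52 times the mean of the other T2 libraries, while their differences between the populations were unlike. The windows found for other members high in that library (Dusp2, Fosb, Fosl2, Jun, Junb, Egr2 and Ier3) did not hold it, and Egr1, also high there, had no window. Because members that moved together prompted the search, this is no test of the motif. Dusp5 and Egr2, the 2 members whose window holds a CArG box, were both among the 20 of 38 members tested that were lower in T1 cells. On either strand, TGACGTCA was found in 1.79% of the 32851 mouse promoter windows and a CArG box in 1.63%. CACGTG was found in 7.15% of all windows and in those of 4 members (Dusp1, Dusp2, Egr2 and Nras). The AP-1 motif TGACTCA, which reads TGAGTCA on the other strand, was found in 5.20% of all windows and the EGR motif GCGTGGGCG in 0.612%, and neither was found in a member's window. None of the motifs overlapped another in the stretches shown. A match is a description of these letters and not evidence that a factor bound there.

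All 6 Sprouty and Spred genes passed the test, 5 of them lower in T1 cells and Spry1 higher. These proteins restrain signalling from receptor tyrosine kinases, and Spred proteins do so by bringing the Ras inhibitor neurofibromin to the membrane. Spry1 (chromosome 3, 37639947 to 37644598 of mm10) had 1485, 903 and 2166 normalized counts in T1 replicates 1, 2 and 3 and 181, 154 and 195 in the T2 replicates. T1 replicate 2 was the lowest T1 library and was still above all T2 libraries. The mean was 8.60-fold higher in T1 cells (log2 fold change 3.01, standard error 0.26, adjusted p 3.96e-06). Spry2, another inhibitor of signalling from growth factor receptors to ERK, had 594, 639 and 571 normalized counts in the T1 and 1931, 2077 and 1847 in the T2 libraries. Its groups lay apart in the other direction, 3.25-fold higher in T2 cells (log2 fold change -1.70, standard error 0.09, adjusted p 1.37e-07). Spry4 was at 146 to 179.9 normalized counts in T1 and 311 to 332 in T2 libraries (log2 fold change -0.98, standard error 0.14).

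The opposite differences partly cancelled in the summed Sprouty level. Per kilobase of exon it was 845 ± 203 in T1 and 1064 ± 50.8 in T2 cells (SD, n = 3 each), and the groups overlapped. Only T1 replicate 3, at 1054, reached the T2 range of 1017 to 1118. The sum was 1.26-fold higher in T2 cells with all libraries and 1.44-fold higher without T1 replicate 3. Spry1 made up 60.0% ± 11.4 of this sum in T1 and 5.74% ± 0.942 in T2 cells, while Spry2 made up 35.8% ± 10.8 and 87.8% ± 1.07. In T1 replicate 2 alone the shares of Spry1 and Spry2 were nearly equal, at 48.0% and 47.3%.

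Among the Spred genes, Spred1 was nearly constant over the T1 libraries. It had 1452, 1449.9 and 1450.3 normalized counts in T1 replicates 1, 2 and 3, and 5542, 5568 and 5930.2 in the T2 replicates. The groups lay far apart, and the mean was 3.92-fold higher in T2 cells (log2 fold change -1.97, standard error 0.07, adjusted p 9.24e-09). Spred3 and Spred2 were 3.25-fold and 1.57-fold higher in T2 cells, with log2 fold changes of -1.70 (standard error 0.13) and -0.64 (standard error 0.09). The summed Spred level per kilobase of exon was 519.9 ± 3.81 in T1 and 1385 ± 43.5 in T2 cells (SD, n = 3 each).

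**Figure D3:**
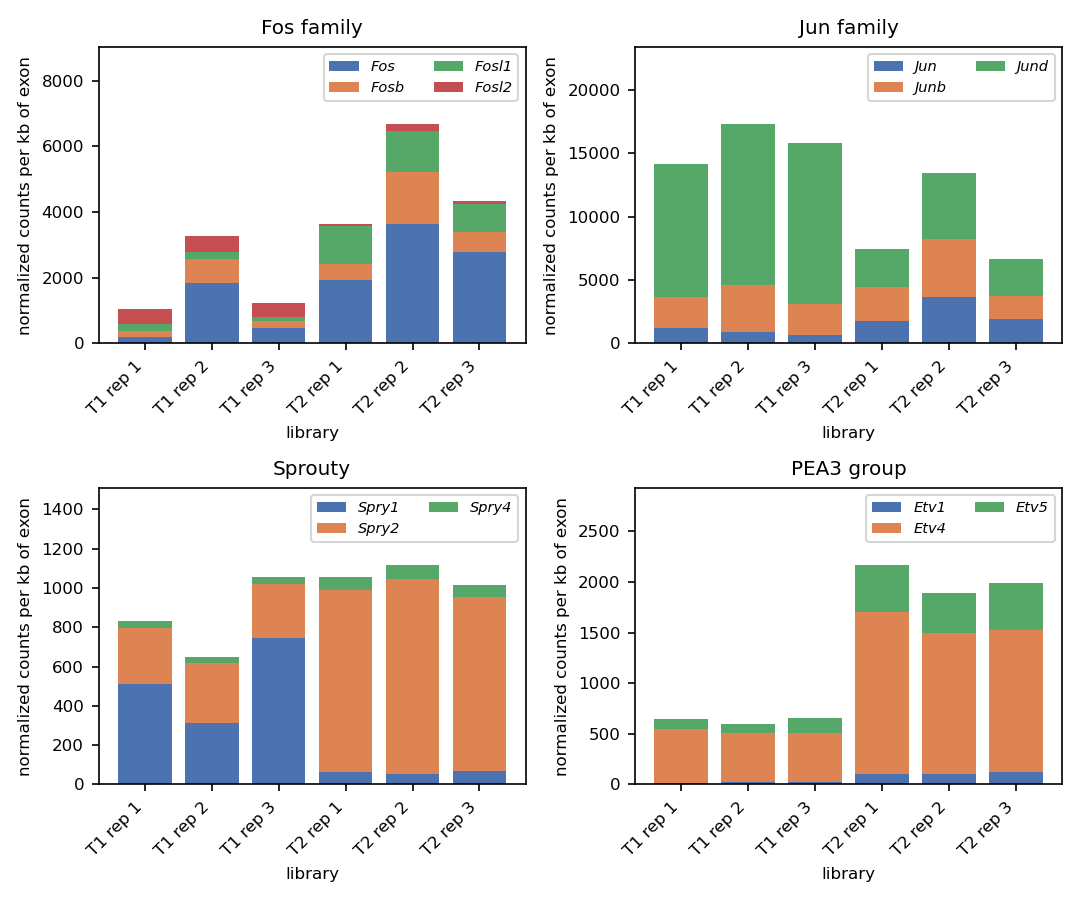
Level per kilobase of exon of each member of the Fos, Jun, Sprouty and PEA3 families, stacked, in each library. The Sprouty sums overlap between T1 and T2 cells through T1 replicate 3 while Spry1 gives way to Spry2, and the Jun sums are carried by Jund in T1 cells.

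The 3 PEA3 group ETS factors, which are transcribed in response to FGF and ERK signalling, were all lower in T1 cells. Etv1 had 229, 264 and 347 normalized counts in T1 replicates 1, 2 and 3, and 1332, 1419 and 1684 in the T2 replicates. No T1 library came near a T2 library, and the mean was 5.28-fold higher in T2 cells (log2 fold change -2.41, standard error 0.16, adjusted p 5.75e-07). Etv5 had 376, 368 and 586 normalized counts in the T1 and 1894, 1631 and 1892 in the T2 libraries. T1 replicate 3 was the highest T1 library, and the mean was 4.07-fold higher in T2 cells (log2 fold change -2.05, standard error 0.17, adjusted p 2.71e-06). The log2 fold change was -1.95 without T1 replicate 1 and -1.94 without T1 replicate 2, short of the cut-off of 2. Etv4 was at 1500.1 to 1657 normalized counts in T1 and 4300.2 to 4988 in T2 libraries (log2 fold change -1.54, standard error 0.09). Per kilobase of exon Etv4 was the most abundant of the 3 in both populations, with 79.6% ± 4.81 of their sum in T1 and 72.6% ± 1.95 in T2 cells. That sum was 630.4 ± 29.7 in T1 and 2015 ± 142 in T2 cells, and T2 replicate 2, high for other members, was the lowest T2 library for it, at 1889.6.

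In the Fos family, 2 genes were lower in T1 cells, Fosl2 was higher and Fosb did not pass. Fos proteins pair with Jun proteins to form AP-1, and Fosl1 is known for its abundance in mesenchymal and invasive tumor cells. Fosl1 had 441, 456 and 292 normalized counts in T1 replicates 1, 2 and 3, and 2316, 2524 and 1744 in the T2 replicates. The groups did not overlap, replicate 3 being the lowest library of both, and the mean was 5.54-fold higher in T2 cells (log2 fold change -2.48, standard error 0.18, adjusted p 1.51e-06). Fosl2 had 4514, 4650.0 and 4171 normalized counts in the T1 and 783, 2172 and 820.3 in the T2 libraries. It was even over the T1 libraries and 2.71 times higher in T2 replicate 2 than in the mean of the other 2 T2 libraries. The log2 fold change was 1.99 (standard error 0.31, adjusted p 0.000277), and it was 2.47 without T2 replicate 2.

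Among T1 libraries, Fos itself varied most of the members (SD of log2 values 1.60). It had 479, 4333 and 1106 normalized counts in T1 replicates 1, 2 and 3, and 4518, 8535 and 6568 in the T2 replicates. T1 replicate 2 came close to T2 replicate 1, so that the groups were only just apart. The log2 fold change was -2.26 (standard error 0.61, adjusted p 0.00815), and the value ran from -3.12 without T1 replicate 2 to -1.53 without T1 replicate 1. The adjusted p was 3.36e-05 without T1 replicate 2 and 9.84e-05 without both libraries of replicate 2, and it rose above 0.01 when any other single library was left out, up to 0.0355 without T2 replicate 2. Fosb had 1009, 4503 and 1250.3 normalized counts in the T1 and 3149, 9908 and 3685 in the T2 libraries. Replicate 2 was the highest library of both populations, and T1 replicate 2 lay above T2 replicates 1 and 3. The log2 fold change was -1.45 (standard error 0.54, adjusted p 0.0375), with -2.11 and an adjusted p of 0.00119 without T1 replicate 2, and -1.60 and 2.05e-05 without both libraries of replicate 2. It was -0.93 (adjusted p 0.154) without T2 replicate 2, -1.03 (0.137) without T1 replicate 1 and -1.19 (0.110) without T1 replicate 3.

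The 3 Jun genes went 3 ways. Jund, the Jun protein of resting cells, had 17464, 21204 and 21142 normalized counts in T1 replicates 1, 2 and 3, and 5055, 8634 and 4778 in the T2 replicates. All T1 libraries were above all T2 libraries, of which replicate 2 was the highest, and the mean was 3.24-fold higher in T1 cells (log2 fold change 1.74, standard error 0.19, adjusted p 2.4e-05). Without T2 replicate 2 the log2 fold change was 2.01, past the cut-off of 2. Jun, the partner of Fos in the classical AP-1 dimer, had 3997, 2942 and 2064 normalized counts in the T1 and 5562, 11613 and 6043 in the T2 libraries. The groups lay apart in the other direction (log2 fold change -1.34, standard error 0.28, adjusted p 0.00192), with -1.0 without T2 replicate 2. Junb, a weaker activator than Jun, had overlapping groups of 5571, 8467 and 5748 normalized counts in T1 and 6175, 10600.1 and 4280.4 in T2 cells. Its log2 fold change was -0.02 with a 95% interval of -0.63 to 0.60.

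Per kilobase of exon the Fos sum was 1854 ± 1229 in T1 and 4884 ± 1593 in T2 cells, and the Jun sum was 15759.7 ± 1586 in T1 and 9167 ± 3711 in T2 cells (SD, n = 3 each). The Fos sum was therefore higher and the Jun sum lower in T2 cells, and neither pair of groups overlapped. The Fos sum was 2.63-fold higher in T2 cells with all libraries and 4.26-fold higher without T1 replicate 2, when its T1 mean was 1147. It was 2.15-fold higher without T2 replicate 2 and 2.16-fold higher without T1 replicate 1. The Jun sum was 1.72-fold higher in T1 cells with all libraries and 2.24-fold higher without T2 replicate 2. Its closest libraries were T1 replicate 1 at 14144.5 and T2 replicate 2 at 13424.6. Fosl2 made up 31.3% ± 15.2 of the Fos sum in T1 and 2.51% ± 0.744 in T2 cells. Its T1 share was 44.5%, 14.7% and 34.6% in replicates 1, 2 and 3. Jund made up 75.9% ± 3.71 of the Jun sum in T1 and 40.8% ± 2.36 in T2 cells, and Jun 6.09% ± 2.48 and 26.4% ± 2.70. The shares of Fos, Fosb and Fosl1 overlapped between the populations.

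Of the other early response genes, Egr1, Egr2, Egr3 and Ier2 were lower in T1 cells, Myc and Phlda1 were higher and Ier3 did not pass. The Egr genes code for zinc finger factors that bind a GC-rich motif and are induced by growth factors. Egr3 (chromosome 14, 70077203 to 70082614 of mm10) had 8.46, 11.2 and 2.93 normalized counts in T1 replicates 1, 2 and 3, and 244, 302 and 249.6 in the T2 replicates. These T1 values stand for 8, 12 and 3 reads, and the T2 libraries were even. The mean was 35.3-fold higher in T2 cells (log2 fold change -5.11, standard error 0.38, adjusted p 1.53e-06), the largest difference of all members, and a pseudocount of 5 in place of 1 gave -4.49. Egr2, whose CArG box is shown above, had 11.6, 17.7 and 9.76 normalized counts in the T1 and 77.4, 182 and 67.7 in the T2 libraries. T2 replicate 2 was the highest library. The log2 fold change was -2.87 (standard error 0.39, adjusted p 0.000101), and -2.43 without that library. Egr1 had 1005, 1218 and 323 normalized counts in the T1 and 2675, 6081 and 2669 in the T2 libraries. T1 replicate 3 was low and T2 replicate 2 high for its group, and the groups did not overlap. The log2 fold change was -2.26 (standard error 0.46, adjusted p 0.0015). It was -1.67 without T1 replicate 3, -2.62 without T1 replicate 2 and -1.86 without T2 replicate 2. Per kilobase of exon, Egr1 made up 96.7% ± 1.25 of the sum of the 3 Egr genes in T1 and 89.6% ± 1.86 in T2 cells, while Egr3 made up 0.874% ± 0.035 and 7.09% ± 2.13.

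Ier2, a small nuclear protein, was at 2199 to 3181 normalized counts in T1 and 4209.9 to 6245 in T2 libraries (log2 fold change -0.92, standard error 0.16). Ier3, a regulator of ERK dephosphorylation and cell survival, had a log2 fold change of -0.19 with a 95% interval of -0.84 to 0.45, and 11519.5 normalized counts in T2 replicate 2 against 4886 to 5314 in the other T2 libraries. Myc, a growth factor-induced transcription factor, ran against the Egr genes. It had 8321, 5907 and 8107 normalized counts in T1 replicates 1, 2 and 3, and 3347, 3140.2 and 2702 in the T2 replicates, with no overlap (log2 fold change 1.27, standard error 0.13, adjusted p 1.62e-05). Phlda1, a gene often used as a readout of ERK output, was also higher in T1 cells, with 2322 to 3477 against 1548 to 2153 normalized counts (log2 fold change 0.78, standard error 0.17, adjusted p 0.00208). Its adjusted p was 0.0102, 0.0131 and 0.0143 without T1 replicate 1, T2 replicate 1 and T2 replicate 3.

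Of the Ras genes and regulators, Rasa1 was lower and Hras and Rras were higher in T1 cells, while Nras and Nf1 did not pass. Rasa1, a GTPase activating protein that switches Ras off, had 1658, 1739 and 2001 normalized counts in T1 replicates 1, 2 and 3, and 6593, 6889 and 6329 in the T2 replicates. The groups lay far apart, and the mean was 3.67-fold higher in T2 cells (log2 fold change -1.88, standard error 0.09, adjusted p 5.52e-08). Nf1, the other Ras GTPase activating protein among the members and the partner of the Spred proteins, differed much less (log2 fold change -0.39, standard error 0.14, adjusted p 0.0312), with -0.52 and an adjusted p of 0.00466 without T1 replicate 3. Rras, a Ras relative that acts on integrin adhesion, was 2.08-fold higher in T1 cells, at 904 to 1047 against 406 to 533 normalized counts (log2 fold change 1.06, standard error 0.12, adjusted p 2.97e-05). Hras was 1.49-fold higher (log2 fold change 0.57, standard error 0.12, adjusted p 0.00247), and its adjusted p was 0.0125, 0.0115 and 0.0136 without T1 replicate 1, T1 replicate 2 and T2 replicate 3. Nras had a log2 fold change of -0.11 with a 95% interval of -0.27 to 0.04, although its 3 T1 values lay below its 3 T2 values. Per kilobase of exon, Nras made up 36.6% ± 0.53 of the sum of the 3 Ras genes in T1 and 53.0% ± 3.75 in T2 cells.

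The members varied more between replicates than most genes. The median SD of log2 values over the replicates was 0.228 in T1 and 0.225 in T2 cells for the members, against 0.138 and 0.124 for the genes tested, and 9 members in T1 and 16 in T2 cells were among the 10% of genes with the largest SD. In T2 replicate 2, Dusp1, Dusp2, Dusp8, Fosb, Fosl2, Jun, Junb, Egr1, Egr2 and Ier3 were 2.0 to 4.56 times the mean of the other 2 T2 libraries. In T1 replicate 2, Dusp2, Fos, Fosb and Egr1 were more than 1 log2 unit above the other T1 libraries. No Sprouty, Spred, PEA3 group or Ras gene was among either set, and Spry1 and Dusp6 were lower in T1 and T2 replicate 2, respectively, than in the other libraries of their population.

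**Figure D4:**
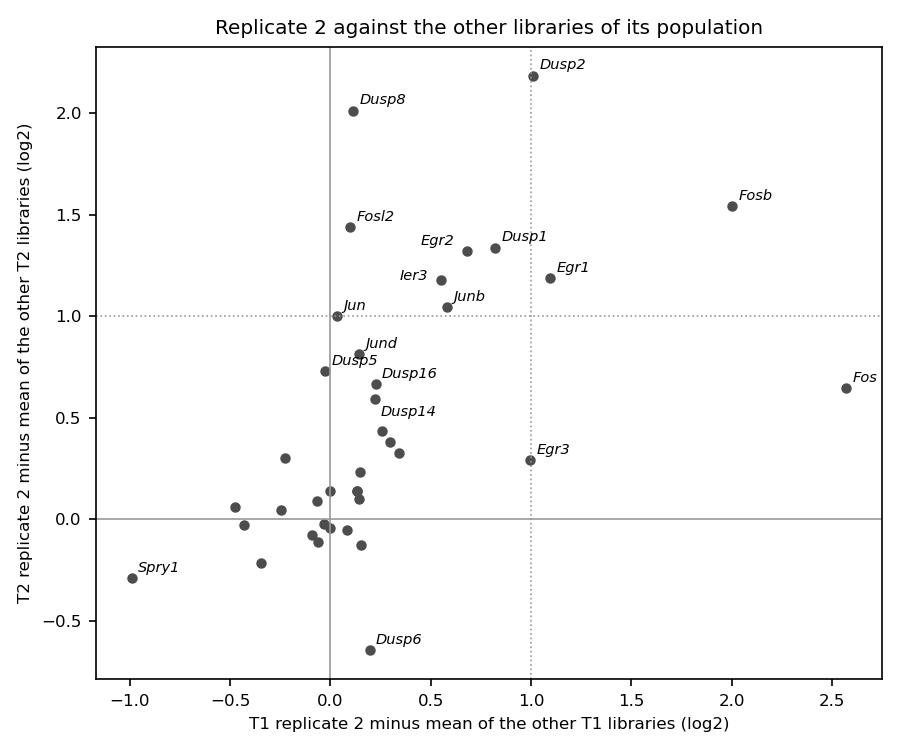
For each member, the log2 difference of replicate 2 from the mean of the other 2 libraries of its population, in T1 (horizontal axis) and T2 cells (vertical axis), with dotted lines at 1. The 10 members at or above the dotted horizontal line were high in T2 replicate 2, among them Dusp2, Fosb and Egr1, which were also high in T1 replicate 2.

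The kinase cascade that many of these genes report on differed less than the members and about as much as the genes tested. Of 24 genes of the cascade from receptor adaptors to serum response factor, 5 had more and 8 had less RNA in T1 cells. Over the genes tested, 25.1% were higher and 24.4% lower. None of the 24 was past both cut-offs, and the median difference was -0.13 (log2). The median absolute log2 fold change was 0.40 for the cascade, 0.45 for the genes tested and 1.67 for the members. The ERK gene Mapk3 was lower in T1 cells, with 1199 to 1566 normalized counts in T1 and 1949 to 2351 in T2 libraries (log2 fold change -0.73, adjusted p 0.000373). Of the MEK genes, Map2k1 was lower (log2 fold change -0.42, adjusted p 0.00149) and Map2k2 higher (log2 fold change 0.49, adjusted p 0.000295) in T1 cells. Braf and Srf did not pass, with log2 fold changes of 0.30 and 0.38. The largest difference in the cascade was that of Ksr1, a scaffold of Raf, MEK and ERK, with a log2 fold change of -1.81.

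**Figure D5:**
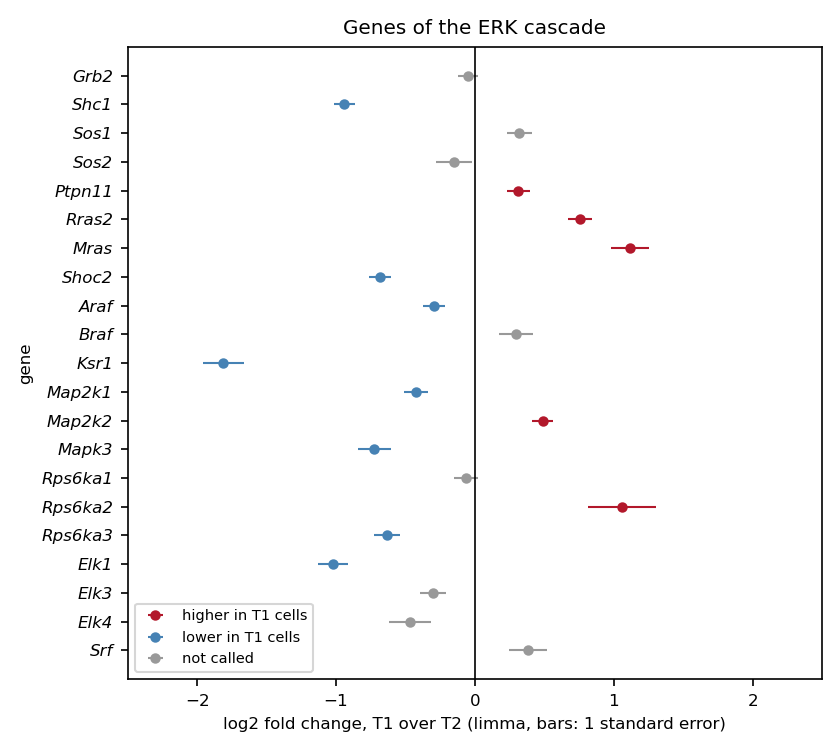
Log2 fold change of T1 over T2 cells for genes of the ERK cascade from limma, with bars of 1 standard error. All genes drawn lie within the cut-off of 2 on either side, with Ksr1 at -1.81 and Mras at 1.12 as the ends of the range.

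Other regulators near the members included a few larger differences. The counts that follow stand beside 25.1% higher and 24.4% lower in T1 cells over the genes tested. Of 6 further Ras GTPase activating proteins and exchange factors that could be tested, 3 were lower and none was higher in T1 cells, and Rasa4, like Rasa1 an inactivator of Ras, was past both cut-offs with 559 to 628 normalized counts in T1 and 2785 to 3672 in T2 libraries (log2 fold change -2.46, adjusted p 4.93e-08). Of 11 JNK, p38 and ERK5 kinases tested, 3 were higher and 2 lower, and Mapk13, the delta form of p38, was past both cut-offs with 1347 to 1724 normalized counts in T1 and 16.4 to 23.5 in T2 libraries (log2 fold change 6.13). Of 8 other dual specificity phosphatases tested, 2 were higher (Dusp3 and Dusp9) and 1 lower (Dusp22) in T1 cells. Of 9 other basic leucine zipper partners tested, 2 were higher and 1 lower in T1 cells. A list of 10 genes used elsewhere to score MAPK activity, 7 of which are members, had 7 genes lower (Spry2, Spry4, Dusp4, Dusp6, Etv4, Etv5 and Ccnd1) and Phlda1 higher in T1 cells, and the median difference was -1.41 (log2). Of its genes that are no members, Ccnd1, a cyclin of the start of the cell cycle, had a log2 fold change of -1.32 (standard error 0.07), while Epha2 and Epha4 did not pass.

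Some members share exon sequence with a gene on the other strand, and whether the counting used strand is not given in the sources used here. Fosl1 shares 1163 bases with Ccdc85b, Jund 877 with Gm11175, Phlda1 727 with Gm28592, Spry1 710 with Gm42922 and Dusp5 547 with AC137853.2. Jun, Spred3, Junb, Dusp8, Rasa1 and Dusp1 share 11 to 232 bases with such genes. The reads of these members may include reads of their partners.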

How the data were processed

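RNA from 3 replicates each of T1 and T2 cells was analysed. The authors prepared poly(A) libraries, trimmed adapters (Trimmomatic), aligned to mm10 (TopHat2), counted by gene (HTSeq) and scaled by DESeq2's median of ratios. The deposited signal is thus a normalized count, the reads of a gene over the size factor of its library. Annotation, strand setting and versions are not given in the sources used here. All values were whole reads after division by the value of 1 read (100%, tolerance 0.05). Library totals were 18133227 to 20839686 reads.

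The 11514 genes whose mean reached 10 normalized counts, of 24129 names (27 had been changed to dates), were compared on log2(normalized count + 1) by limma (version 3.58.1, R 4.3.3) with a variance trend and no replicate term. P-values were adjusted by Benjamini-Hochberg. Following the methods of the study, the cut-offs were an adjusted p of 0.01 and an absolute log2 fold change of 2. The tests were tested on simulated data. Members, lists and motifs were chosen with earlier results of these data known. Values of each library are given for members past both cut-offs, for the largest called difference of each group, and for others where replicate 2 or a composition is described. Some genes of the other lists are not reported here. Positions and exon lengths came from GENCODE on the same build, and promoters from RefSeq (GRCm38.p6).

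Alternatives were pseudocounts of 0.5 and 5, no filter or a minimum mean of 50, quantile normalization, no variance trend, edgeR 4.0.16 and DESeq2 1.42.0 on the whole reads, a replicate term, wider cut-offs and each library left out. Leaving out both libraries of replicate 2 and an edgeR fit with a replicate term were added after seeing the data. Replicate numbers were checked by the correlation of deviations from the group means. Python 3.11.15 with matplotlib 3.10.9 drew the figures.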

Additional observations from a re-analysis of the deposited data

How the results depend on the processing

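Of the 30 members called, 25 kept their call and direction under all 17 alternatives. The exceptions were Fos, which lost its call under 8 of them with an adjusted p of up to 0.0685 (DESeq2), Jun and Egr1 without the variance trend (adjusted p 0.0161 and 0.0138), and Phlda1 and Hras without the variance trend (0.0155 and 0.0149) and without some single libraries, Hras also without both libraries of replicate 2 (0.0158). The number of members higher in T1 cells past both cut-offs, 2, was 2 to 5 with single libraries left out, 4 with edgeR and the replicate block, 4 without both libraries of replicate 2 and 8 with wider cut-offs (adjusted p under 0.05 and log2 fold change above 1). The number lower, 9, was 18 with wider cut-offs. It lost Fos and Egr1 without T2 replicate 2 (adjusted p 0.0355, log2 fold change -1.86) and without T1 replicate 3 (0.0241, -1.67). It lost Fos and Etv5 without T1 replicate 1 (0.0193, -1.95), and Etv5 without T1 replicate 2 (-1.94). It lost Fos without T2 replicate 1 or 3 (adjusted p 0.0168 and 0.0338), with edgeR (0.0276) and with DESeq2 (0.0685). Without the variance trend it lost Fos and Egr1 (adjusted p 0.0403 and 0.0138). Of the members that were not called, the sign of the log2 fold change turned for 5 when single libraries were left out. The range was -0.57 to 0.15 for Dusp1 (turned without T2 replicate 2), -0.040 to 1.11 for Dusp2 (without T2 replicate 3), -0.067 to 0.115 for Dusp7 (without T1 replicate 2 or T2 replicate 3), -0.32 to 0.33 for Junb (without T1 replicates 1 or 3 or T2 replicate 2) and -0.42 to 0.20 for Ier3 (without T1 replicate 3 or T2 replicate 2). Junb also turned without both libraries of replicate 2 (0.14) and with edgeR and the block (0.00101), and Ier3 without both libraries (0.016). The cause was not tested.

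Replicates 1, 2 and 3 of the populations correlated by 0.0575, 0.172 and 0.104 in their deviations from the group means over the genes tested. Each T1 replicate correlated best with the T2 replicate of its number, while T2 replicate 1 correlated best with T1 replicate 3 (0.0719). The labels do not say whether a number stands for a shared batch, so the numbers were not taken to pair the samples. Whether they mark a shared batch was not tested. With the replicate block, 10 members were higher and 21 lower in T1 cells, Fosb being added (adjusted p 1.46e-06), and no other call changed. The adjusted p of Fos was 0.000127 with the block and 0.00815 without it. On the whole reads, edgeR called 3009 genes higher and 2722 lower in T1 cells, against 2888 and 2813 with limma.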

Other observations

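Of 13 other early response genes tested, 3 were higher and 5 lower in T1 cells, against 25.1% and 24.4% of the genes tested. Ctgf and Gadd45b, past both cut-offs, went against the Egr genes. Ctgf, a matrix protein and a target of YAP and TGF-beta signalling, had 12145, 12700.1 and 16336 normalized counts in T1 replicates 1, 2 and 3, and 191, 173 and 169.8 in the T2 replicates (log2 fold change 6.25, standard error 0.12). Gadd45b, a stress response gene, had 1149 to 1789 normalized counts in T1 and 59.4 to 127 in T2 libraries (log2 fold change 3.96, standard error 0.27). Klf2 and Nr4a2, transcription factors past both cut-offs in the other direction, had log2 fold changes of -2.61 (standard error 0.32) and -2.04 (standard error 0.46). Nr4a2 had 585, 2257 and 497 normalized counts in T2 replicates 1, 2 and 3, and its log2 fold change was -1.35 without T2 replicate 2, short of the cut-off of 2.

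T2 replicate 2 was also high in early response genes outside the members. It lay more than 1 log2 unit above the other T2 libraries for 7 of these 13 genes (Nr4a2, Klf4, Klf6, Klf10, Zfp36, Btg2 and Ier5). Atf3, a stress-induced partner of Jun, had 195, 2897 and 267 normalized counts in T2 replicates 1, 2 and 3, and 578, 2228 and 684 in T1 replicates 1, 2 and 3, so that replicate 2 was the highest in both populations. Of 6 heat shock genes tested, Hspa1b was high in T2 replicate 2 (2872 against 1153 and 1379.7 normalized counts), and none of the 24 genes of the ERK cascade was. Over the members, the deviations of same-numbered replicates correlated by 0.318, 0.522 and 0.506. The members share their libraries, and this is a description.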
